A study of Mus musculus with 4 samples.

Results

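The genes described here act in mouse spermatogonia and at the first steps of their differentiation. They are *Gfra1*, *Ret*, *Zbtb16*, *Kit*, *Stra8*, *Nanos2*, *Nanos3*, *Sohlh1*, *Sohlh2* and *Uchl1*, 10 genes chosen by name. Of these, 8 are among the 12415 features counted as sense reads over gene exons, and *Ret* and *Nanos2* have no row there. Enough reads for the test were found for 5 of the 8: *Uchl1*, *Kit*, *Sohlh2*, *Stra8* and *Sohlh1*. None of these 5 passed the test for a difference between genotypes.

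Total testicular RNA was sequenced from C57Bl/6J mice at postnatal day 60, with 2 libraries from *Nef-sp*-/- and 2 from *Nef-sp*+/- testes. Both genotypes carry the allele made with the Cas9 nickase and a pair of guide RNAs, a deletion of 23 bp out of frame in the gene of the NEF-sp exoribonuclease, on both copies in *Nef-sp*-/- and on a single copy in *Nef-sp*+/- animals, and no wild-type library was used here. The line descends from founder females crossed with wild-type males, and whole testes were used, so germ cells of every stage and somatic cells contribute to each library. In the following, *Nef-sp*-/- libraries are called homozygous and *Nef-sp*+/- libraries heterozygous. The comparison asks whether RNA levels in the testis differ when the second copy of *Nef-sp* is also disrupted.

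Spermatogenesis starts from a small pool of undifferentiated spermatogonia on the basement membrane of the seminiferous tubule. Sertoli cells secrete GDNF, which binds the co-receptor GFRA1 and signals through the receptor tyrosine kinase RET to maintain these cells. Retinoic acid moves spermatogonia into differentiation, when they gain the receptor KIT, and then into meiosis, when STRA8 is induced. In the adult testis spermatogonia are far outnumbered by spermatocytes and spermatids.

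Each library gave between 15815159 and 26618821 gene exon sense reads, of 20659865 to 34442517 reads in all categories. *Nef-sp* itself, listed as 2610020H08Rik, had normalized counts of 1843 and 1693 in heterozygous and of 407 and 497 in homozygous replicates 1 and 2. Normalized counts are reads scaled to a common library size. On the log2 scale the homozygous libraries differed from the heterozygous by -1.97 ± 0.0921 (SE, adjusted p = 4.1e-06, quasi-likelihood test of edgeR), so the libraries matched their genotype labels. All log2 fold changes are given in this direction. It was the only gene called among 10728 tested, or 0.00932% at an adjusted p of 0.05. Heterozygous replicate 1 stood apart in its spermatid RNA. The 10 markers of elongating spermatids, which include the protamines *Prm1* and *Prm2*, summed to 528431 normalized counts in it, against 643931 to 662038 in the other libraries. Without heterozygous replicate 2, which leaves this library as the lone control, 252 genes were called, 221 of them higher in the homozygous libraries. Without heterozygous replicate 1, 41 were called, 33 of them lower in the homozygous libraries. The labels give replicate numbers but do not say how the animals were related. The p-values set the genotype difference against the spread between these libraries, which edgeR estimates with information from all tested features.

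*Gfra1* (ENSMUSG00000025089) encodes the GDNF co-receptor of undifferentiated spermatogonia. It lies on the minus strand of chromosome 19 of mm9 from 58310094 to 58530399. Its exons had 5 and 8 reads in heterozygous replicates 1 and 2 and 5 and 9 reads in homozygous replicates 1 and 2. The raw counts of the genotypes overlapped. Scaled to library size they were 5.75 and 5.63 against 5.77 and 10.6 normalized counts, which do not overlap, with homozygous replicate 1 only just above the heterozygous libraries. All were below the filter for low expression. Pooled over libraries and scaled to their sizes, 14 reads against 13 gave a ratio of homozygous to heterozygous libraries of 1.44, with an exact 95% interval of 0.628 to 3.33 that covers counting error only. In whole testis, fewer cells of a type and less RNA per cell cannot be told apart, here and for the genes below. Its partner *Ret* (ENSMUSG00000030110), on chromosome 6 from 118101766 to 118147762, is not in the table used here and has no value.

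*Zbtb16* (ENSMUSG00000066687) encodes PLZF, a zinc finger repressor needed to maintain the stem cell pool. It is annotated on the minus strand of chromosome 9 from 48462416 to 48644050. It had 1 exon read in each of 3 libraries and 2 reads in homozygous replicate 2. *Nanos3* (ENSMUSG00000056155), on the minus strand of chromosome 8 from 86697632 to 86700451, encodes an RNA-binding zinc finger protein of germ cells. It had 2 reads in heterozygous replicate 1 and 1 read in each of the other libraries. With 5 reads in all for each gene, every library was close to the limit of detection. Neither gene passed the filter for low expression, and no fold change is given. The exact Poisson 95% interval of 3 reads runs from 0.619 to 8.77, so that even large relative differences were not detectable at this depth. *Nanos2* (ENSMUSG00000051965), on chromosome 7 from 19572873 to 19574311, a paralog that holds stem cells in the undifferentiated state, is not in the table used here.

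*Uchl1* (ENSMUSG00000029223), on the plus strand of chromosome 5 from 67067360 to 67078472, encodes a ubiquitin hydrolase known as PGP9.5 and used to stain spermatogonia. It was the member with the most reads. Its normalized counts were 634 and 769 in heterozygous replicates 1 and 2 and 813 and 747 in homozygous replicates 1 and 2. Heterozygous replicate 1 was the lowest, and the other 3 libraries were mixed across genotypes. The means were 701.6 ± 95.3 and 779.8 ± 46.9 (SD, n = 2 each), and the log2 fold change was 0.14 ± 0.0938 (SE, adjusted p = 0.954 by edgeR over all tested gene exon sense features). The 95% interval of the fold ran from 0.955 to 1.27. Without heterozygous replicate 1, the library with the low spermatid RNA, the log2 fold change was 0.02. Without heterozygous replicate 2 it was 0.30 (adjusted p = 0.124 by edgeR, with 0.949 or more under every other alternative). The part of the spermatid difference in the *Uchl1* values was not tested.

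*Sohlh1* and *Sohlh2* encode basic helix-loop-helix transcription factors that work together in the passage from undifferentiated to differentiating spermatogonia. *Sohlh2* (ENSMUSG00000027794), on the plus strand of chromosome 3 from 54985950 to 55013879, had normalized counts of 94.4 and 121.8 in heterozygous and 117.8 and 139.6 in homozygous replicates 1 and 2. The lowest value again came from heterozygous replicate 1, and the genotypes overlapped. The means were 108.1 ± 19.4 and 128.7 ± 15.4 (SD, n = 2 each), which differed by 0.22 ± 0.161 on the log2 scale (SE, adjusted p = 0.954 by edgeR). It was 0.08 without heterozygous replicate 1 and 0.45 without heterozygous replicate 2, and neither passed the threshold.

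*Sohlh1* (ENSMUSG00000059625), on the minus strand of chromosome 2 from 25698515 to 25702768, had fewer reads than its partner. The raw counts were 16 and 46 in heterozygous and 22 and 16 in homozygous replicates 1 and 2, and the normalized counts 18.4 and 32.4 against 25.4 and 18.9. Both homozygous libraries lay inside the range of the heterozygous libraries. The log2 fold change of -0.28 ± 0.331 (SE, adjusted p = 0.956 by edgeR) was smaller than the difference of 0.81 on the log2 scale between the heterozygous replicates. It turned to 0.27 without heterozygous replicate 2. The estimates of these partners had opposite signs, and both 95% intervals of the log2 fold change included 0, from -1.01 to 0.45 for *Sohlh1* and from -0.14 to 0.57 for *Sohlh2*.

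*Kit* (ENSMUSG00000005672), on the plus strand of chromosome 5 from 75970941 to 76052747, encodes the receptor for stem cell factor and marks differentiating spermatogonia. It is also known from Leydig cells, and a truncated form is made in spermatids, so its reads cannot be given to a single cell type. Its normalized counts were 214 and 207 in heterozygous and 180.2 and 241 in homozygous replicates 1 and 2. The homozygous libraries lay on both sides of the closely placed heterozygous libraries. The means were 210.6 ± 4.98 and 210.8 ± 43.3 (SD, n = 2 each), and the log2 fold change was 0.0034 ± 0.136 (SE, adjusted p = 0.999 by edgeR). The 95% interval of the fold was 0.815 to 1.23. The sign depended on the libraries kept, with 0.20 on the log2 scale without homozygous replicate 1 and -0.22 without homozygous replicate 2. It was -0.024 without heterozygous replicate 2 and -0.019 with the library size of all categories. The 8 Leydig cell markers, none of them called, summed to 19810 and 19917 normalized counts in the heterozygous libraries, to 18852 in homozygous replicate 1 and to 16436 in homozygous replicate 2, where *Kit* was highest. Their part in the *Kit* values was not tested.

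*Stra8* (ENSMUSG00000029848), on the plus strand of chromosome 6 from 34870163 to 34889342, encodes a retinoic acid-induced protein required for entry into meiosis. Its normalized counts were 87.5 and 76.1 in heterozygous and 76.2 and 97.0 in homozygous replicates 1 and 2. The highest and a low value were both from homozygous testes. The means were 81.8 ± 8.07 and 86.6 ± 14.7 (SD, n = 2 each), with a log2 fold change of 0.10 ± 0.175 (SE, adjusted p = 0.968 by edgeR) and a 95% interval of the fold from 0.82 to 1.40. Without homozygous replicate 2 the log2 fold change was -0.08, and without homozygous replicate 1 it was 0.27. Without heterozygous replicate 2 it was -0.015.

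**Figure D1:**
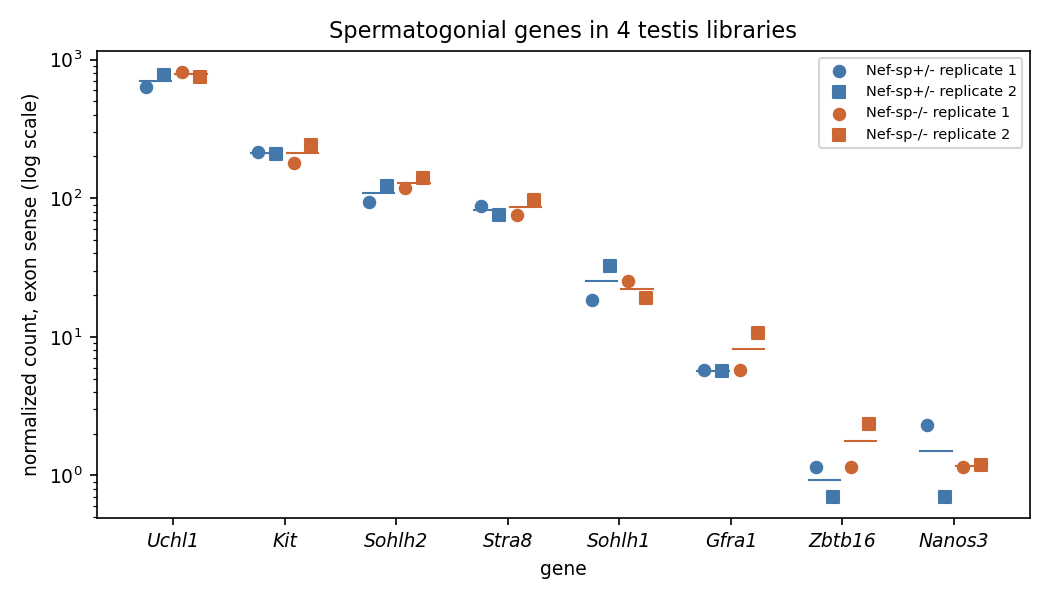
Normalized exon sense counts of the 8 listed genes in each library on a log scale, with blue points for *Nef-sp*+/-, orange points for *Nef-sp*-/- and a short line at each genotype's mean. *Uchl1* lies between 634 and 813, *Zbtb16* and *Nanos3* lie near 1, and the points of the genotypes overlap for each of the 5 tested genes.

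In the whole set, 0 of the 5 tested members had an adjusted p below the threshold by edgeR, 0 had an unadjusted p below 0.05, and DESeq2 called 0 of the 8 listed. Over all 10728 features tested, 4.8% had an unadjusted p below 0.05. The libraries of the genotypes did not overlap for 0 of the 5 members, where 34.5% of all tested features showed no overlap. The log2 fold change was positive for 4 members and negative for 1, with a median of 0.10 beside a median of -2.2e-04 over all features. This median of the members rested on single libraries. It was 0.025 without heterozygous replicate 1, 0.27 without heterozygous replicate 2, 0.20 without homozygous replicate 1 and -0.079 without homozygous replicate 2. The positive signs of *Kit* and *Stra8* turned when single libraries were left out, and that of *Kit* also with the library size of all categories. Precision followed the reads. *Sohlh1*, with 100 reads in all, had a standard error of 0.331, *Kit*, with 840 reads, one of 0.136, and *Uchl1*, with 2978 reads, one of 0.0938. The median over all tested features was 0.0893.

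**Figure D2:**
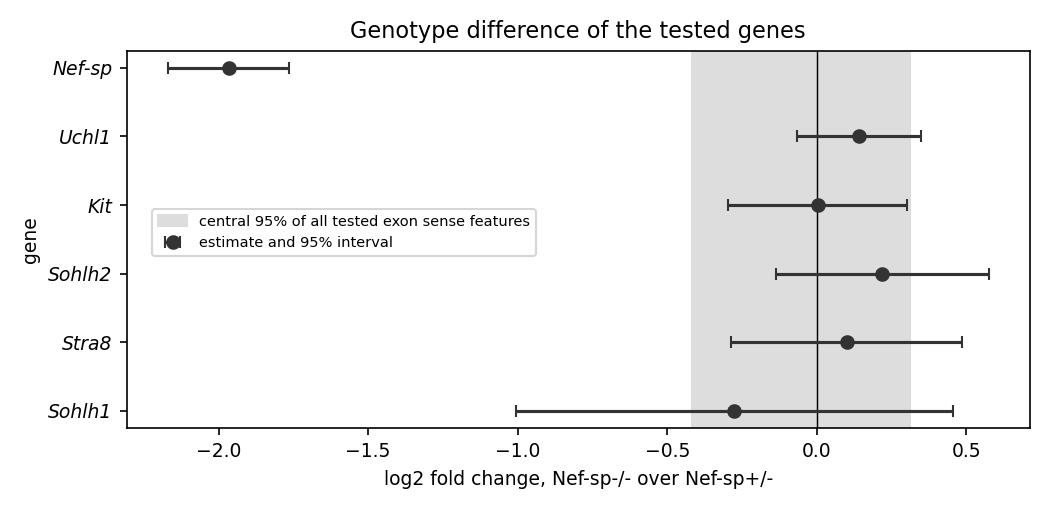
Log2 fold change of homozygous against heterozygous libraries on the x axis for *Nef-sp* and the 5 tested members, in order of read number, with points for the edgeR estimate, bars for its 95% interval and a grey band for the central 95% of all tested exon sense features, from -0.42 to 0.31. The intervals of the 5 members include 0, and that of *Nef-sp* runs from -2.17 to -1.76.

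**Figure D3:**
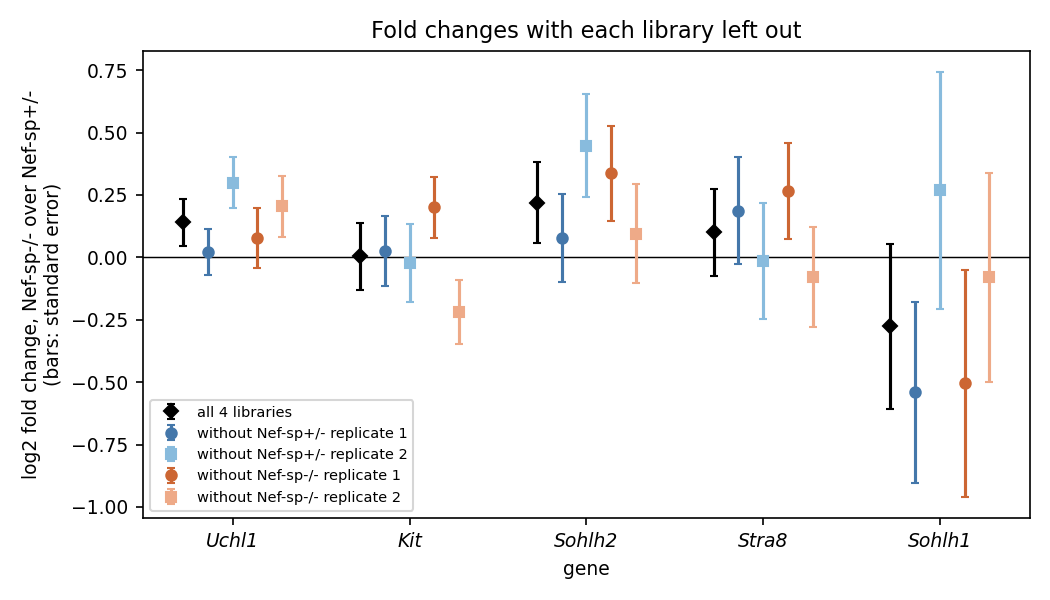
Log2 fold change of the 5 tested members on the y axis, fitted with all 4 libraries (black) or with 1 library left out (colors), with bars for the standard error. *Uchl1* runs from 0.02 to 0.30 and *Sohlh1* from -0.54 to 0.27, and the sign of *Kit*, *Stra8* and *Sohlh1* depends on the libraries used.

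The summed normalized count of the 8 listed members was 1058 and 1213 in heterozygous and 1221 and 1258 in homozygous replicates 1 and 2. Heterozygous replicate 1 was the lowest library, as it was for the elongating spermatid markers, and the remaining 3 libraries lay close together. This did not hold for each member, as *Kit* and *Stra8* were not lowest in it. Summed lists also went both ways. That library was lowest for the round spermatid, peritubular, endothelium and epididymis lists. It was highest for the spermatocyte, retinoic acid and differentiating spermatogonia lists. *Uchl1* alone made up 62.5% of the members' reads and *Kit* 17.6%, so the sum mostly repeats these genes. All 8 together took 0.00638% of the gene exon sense reads.

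**Figure D4:**
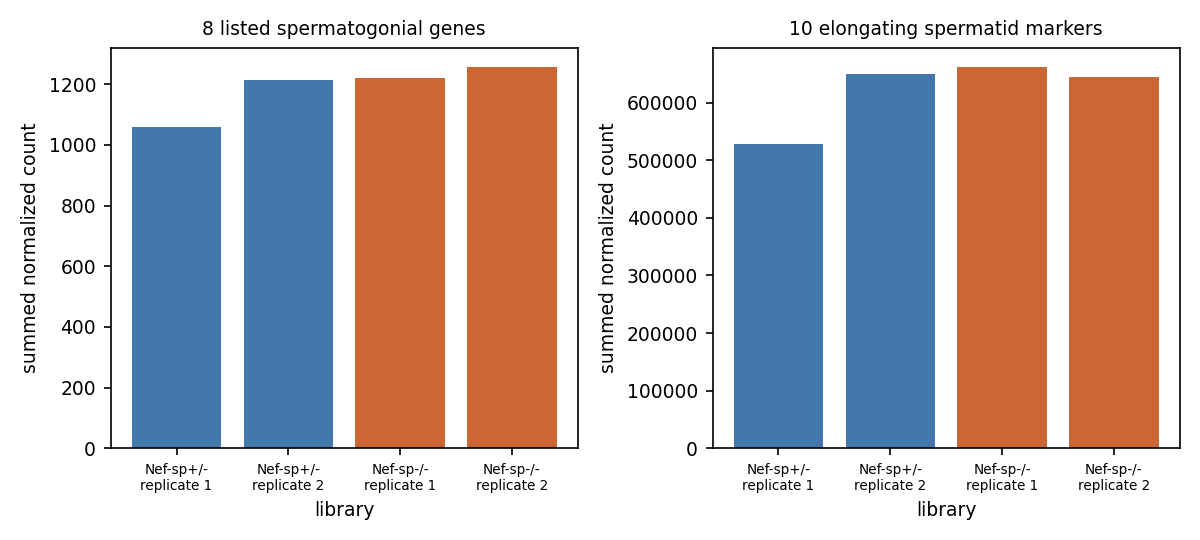
Summed normalized exon sense counts per library for the 8 listed members (left) and the 10 elongating spermatid markers (right), with bars starting at 0, blue for *Nef-sp*+/- and orange for *Nef-sp*-/-. In both panels heterozygous replicate 1 is the lowest, at 1058 and 528431.

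To compare levels between genes, reads were divided by the length of the annotated exons and by the gene exon sense reads of the library, on the usual RPKM scale. *Uchl1* was the highest with 30.4, 35.8, 37.6 and 34.8 RPKM in heterozygous replicates 1 and 2 and homozygous replicates 1 and 2. Its mean of 34.6 was 12.9 times that of the next gene and lay at the percentile 82.5 of 11430 features with a length. *Sohlh2* followed with a mean of 2.68 RPKM, *Stra8* with 2.51 and *Kit* with 1.94, at the percentiles 41.4, 40.4 and 36.9. The libraries of *Sohlh2* and *Stra8* overlapped in level. Those of *Stra8* and *Kit* did not, though they overlapped when the longest transcript was used as the length, which put *Kit* at 2.16. *Kit* had 840 reads over 5831 bases of exon, and *Stra8* 332 reads over 1801 bases.

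*Sohlh1* had a mean of 0.989 RPKM, and *Sohlh2* was above it in every library. The next gene was *Nanos3*, with a mean of 0.0988 RPKM and no library near those of *Sohlh1*. *Gfra1* followed with 0.0681 and *Zbtb16* with 0.0141. *Nanos3* and *Gfra1* overlapped in level, and *Zbtb16* lay below *Gfra1* in each library. *Nanos3*, *Gfra1* and *Zbtb16* were at the percentiles 10.3, 8.21 and 1.28 of the features with a length, below the other listed members. *Nanos3* and *Zbtb16* had 5 reads each, the lowest total of any listed feature. Their order in level rests on exon lengths of 730 and 5100 bases. For comparison, the median RPKM over 10 spermatocyte markers was 86.5 and over the 10 elongating spermatid markers 1556.

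**Figure D5:**
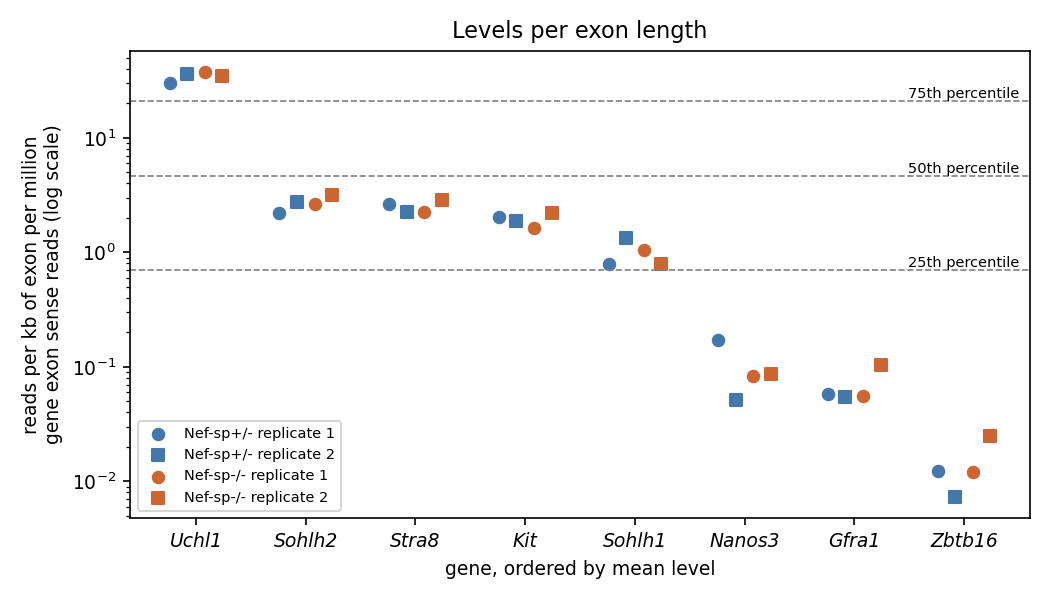
Exon sense read density (RPKM) on a log scale for the 8 listed members, in order of mean level, with a point for each library and dashed lines at the percentiles of 11430 features. *Uchl1* lies above the upper quartile of 20.9, *Sohlh2*, *Stra8*, *Kit* and *Sohlh1* between 0.784 and 3.16, and *Nanos3*, *Gfra1* and *Zbtb16* at or below 0.173.

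Little of the sequence of these genes is shared with coding transcripts of other genes. Noncoding genes and the rest of the genome were not searched. In the annotated coding transcripts, 0 stretches of 50 bases, the read length, were shared with transcripts of other genes for 9 of the 10 members. *Zbtb16* shared 10 of its 5023 stretches. No other gene is annotated on the same strand over the exons of any member, while *Gfra1* and *Uchl1* each overlap 1 gene on the opposite strand. The libraries were strand specific, and 0 members are listed with antisense reads over exons or introns.

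Sense reads over introns, which come largely from unspliced RNA, are listed for 3 members. *Gfra1* had 13 and 9 intron reads in heterozygous and 9 and 15 in homozygous replicates 1 and 2. These outnumbered its exon reads, and intron reads made up 63.0% of the sum. Of the 6441 features with both kinds of reads, 204 or 3.17% had more intron than exon reads, and the median share was 1.5%. The introns of *Gfra1* are long, 214830 bases against 5476 bases of exon, so that per kilobase the exons still had 4.93 reads and the introns 0.214 over all libraries. The genotypes overlapped, as they did for all but 28% of the features tested. The log2 fold change was 0.47 ± 0.472 (SE, adjusted p = 0.9996 by edgeR over 3403 gene intron sense features, of which 0.0294% were called), and it was -0.10 without heterozygous replicate 2. *Kit* had 22 intron reads beside 840 exon reads, a share of 2.55%, and *Uchl1* 12 beside 2978, a share of 0.401%. *Kit* gave 1, 10, 5 and 6 intron reads in heterozygous replicates 1 and 2 and homozygous replicates 1 and 2, and *Uchl1* 2, 2, 1 and 7. Both were below the filter, and their pooled ratios of homozygous to heterozygous libraries had exact 95% intervals of 0.506 to 3.27 and 0.69 to 11.7.

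Other genes of undifferentiated spermatogonia also showed no called difference. Of 20 genes on this list, 11 were listed, 6 were tested and 0 passed in either direction, with a median log2 fold change of -0.11. *Id4*, a transcriptional inhibitor found in stem cells, had the smallest p, with normalized counts of 840.2 and 801 in heterozygous and 722 and 757 in homozygous replicates 1 and 2. Its libraries did not overlap, and its log2 fold change was -0.15 (adjusted p = 0.954 by edgeR). *Etv5*, a GDNF-responsive transcription factor, had a log2 fold change of -0.07, and *Tspan8*, a membrane protein of stem cell-rich fractions, one of -0.38, with overlapping libraries for both. That of *Tspan8* was -0.017 without homozygous replicate 1 and -0.85 without homozygous replicate 2. At 25.2 and 3.51 RPKM, *Id4* and *Etv5* were between *Uchl1* and *Sohlh2* in level, while *Tspan8*, at 1.03, was below *Kit*. Stem cell genes such as *Eomes*, *Pax7*, *Utf1* and *Neurog3* are not in the table used here.

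Of the 20 genes of GDNF-RET and KIT signalling, 17 were listed, 14 tested and 0 called. Their median log2 fold change was -0.08, and the libraries did not overlap for 6 lower and 1 higher gene, beside 18.1% of features lower and 16.4% higher over all tested. *Kitl*, the ligand of KIT made by Sertoli cells, had 440.8 and 482 normalized counts in heterozygous and 467 and 430.7 in homozygous replicates 1 and 2, which overlapped. *Gfra2*, a co-receptor of the same family as GFRA1, had a mean of 436.6 normalized counts over all libraries and a log2 fold change of 0.07. At 6.66 RPKM it was well above *Gfra1*. The smallest p belonged to the adaptors *Grb2* and *Frs2*, with log2 fold changes of -0.39 and -0.29, and to the chemokine *Cxcl12*, with -0.30, and the adjusted p was 0.954 for each by edgeR. *Gdnf* is not in the table used here.

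In the retinoic acid pathway, 16 of 20 genes were listed, 12 tested and 0 called. The log2 fold change was negative for 10 of the 12, with a median of -0.08 beside -2.2e-04 over all features tested. The libraries did not overlap for 2 lower and 1 higher gene, beside 18.1% of features lower and 16.4% higher over all tested. *Rec8*, a meiotic cohesin subunit induced by retinoic acid, had normalized counts of 1158 and 1068 in heterozygous and 941 and 970 in homozygous replicates 1 and 2. Both homozygous libraries were lower, with a log2 fold change of -0.22 and an unadjusted p of 0.0097, which gave an adjusted p of 0.954 by edgeR. The retinaldehyde dehydrogenase *Aldh1a1* had a log2 fold change of -0.15 and the retinoic acid-degrading *Cyp26b1* one of -0.20, while *Rdh11*, a retinol dehydrogenase with the most reads on the list, had 0.05. Per length, *Aldh1a1* was higher, at 161.5 RPKM against 110.6 for *Rdh11*. The estimates moved with single homozygous libraries, for *Aldh1a1* to -0.0075 without replicate 1 and -0.29 without replicate 2, and for *Cyp26b1* to -0.055 and -0.36.

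Of 24 genes expressed in differentiating spermatogonia, 18 were listed, 16 tested and 0 called, with 8 positive and 8 negative log2 fold changes and a median of 0.0030. *Scml2*, a Polycomb protein of the germline, had the smallest p on any of the 4 lists. Its normalized counts were 908 and 834 in heterozygous and 1104 and 1202 in homozygous replicates 1 and 2. Both homozygous libraries were higher, by a log2 fold change of 0.41 ± 0.0736 (SE, unadjusted p = 1.9e-04, adjusted p = 0.468 by edgeR), and DESeq2 gave an adjusted p of 0.514. It passed without heterozygous replicate 1 (0.47 on the log2 scale, adjusted p = 2.7e-04 by edgeR) and without heterozygous replicate 2 (0.34, adjusted p = 0.028), but not without either homozygous library, and the adjusted p was between 0.135 and 0.991 under the other alternatives. *Tktl1*, a transketolase-like gene, had a log2 fold change of 0.42, with both homozygous libraries higher and an adjusted p of 0.954 by edgeR. *Tdrd1*, *Ddx4* and *Tex15*, germ cell genes that also act in meiosis, had log2 fold changes of -0.10, -0.05 and 0.01.

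Markers of other testicular cells were checked beside these genes, and 0 of them were called. Over the tested markers, the median log2 fold change was -0.03 for spermatocytes, -0.02 for round spermatids, 0.15 for elongating spermatids, -0.08 for Sertoli cells, 0.05 for Leydig cells, -0.01 for peritubular and smooth muscle cells and -0.07 for macrophages. All 10 markers of elongating spermatids had a positive value, and 4 of them were higher without overlap between genotypes, beside 16.4% of all features tested. Their summed count in heterozygous replicate 2, 649297, lay between those of the homozygous libraries, 643931 and 662038. Only heterozygous replicate 1, at 528431, stood apart. Of the 8 Leydig cell markers, 3 were lower without overlap, beside 18.1% of all features. The same held for 3 of the 10 spermatocyte markers and 2 of the 6 tested macrophage markers. None of these lists had a marker higher without overlap. Of the 10 round spermatid markers, 2 were lower and 1 was higher. The lists for endothelium, blood and epididymis had 2, 2 and 1 tested genes with values between -0.75 and 0.23. Of the 6 epididymal genes only 2 were listed, *Crisp1* with 5 reads in all and *Defb19*, a defensin also made in Sertoli cells, with 10224.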

How the data were processed

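Total testicular RNA from 2 *Nef-sp*-/- and 2 *Nef-sp*+/- samples had been depleted of ribosomal RNA and read for 50 cycles. What the authors deposited are raw counts per feature, annotation category and strand, of reads that matched mm9 perfectly in mapping with their own tools. The versions, the annotation and the handling of multiply matching reads are not given in the sources used here. Every listed feature has at least 5 reads in all, so a gene without a row may be rare or absent from the annotation. The authors also deposited a mean normalized signal, log2 fold changes and p-values from DESeq2, which were not used.

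TMM normalization, the expression filter with a minimum count of 10 and the quasi-likelihood test of edgeR 4.0.16 (R 4.3.3) were applied to the counts of each category on its own. No covariate was used, and the Benjamini-Hochberg adjustment ran over all features of the category that passed the filter. Standard errors and 95% intervals were derived from the F statistic. The fit was tested on simulated data. Exon lengths came from GENCODE vM1 on the same build (NCBIM37), which matched 11430 of 12415 symbols and may differ from the authors' annotation. Low counts were given exact Poisson or binomial intervals (SciPy 1.17.1), which cover counting error only. Figures were drawn with matplotlib 3.10.9.

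The members, the 4 pathway lists and the 10 marker lists were chosen with earlier results of these data known. Named from each pathway list were the 3 tested genes with the smallest p and the 2 with the highest mean count, which coincided for some. *Crisp1*, *Defb19*, *Prm1*, *Prm2* and the genes named as not in the table were chosen after the values were seen. With 4 libraries, no gene was named for a likeness of pattern. The alternatives were DESeq2 1.42.0, its size factors in edgeR, the library size of all categories without TMM, a single fit over all categories and no filter. Others were a stricter filter of 10 counts per library, leaving out each library, and a block for the replicate number. A crossed block for the intron category was added after the data were seen.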

Additional observations from a re-analysis of the deposited data

How the results depend on the processing

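In all 11 alternatives 0 members were called in the exon sense category. *Nef-sp* remained called in each, with log2 fold changes between -2.11 and -1.83. The number of exon sense genes called was 2 with DESeq2 and ran from 1 to 252 when single libraries were left out, where the lone library of a genotype is assumed to vary like the others. The intron sense count was 0 with DESeq2, with all genes kept, in a single fit and with the library size of all categories, and 2 with the crossed block. In the list of differentiating spermatogonia, 0 to 1 genes were called with single libraries left out. The log2 fold change of *Kit* was -0.019 with the library size of all categories and -0.0072 in the single fit, and that of *Tex15* was -0.0098 with the library size of all categories. With single libraries left out, it ran from -0.22 to 0.20 for *Kit*, -0.079 to 0.27 for *Stra8*, -0.54 to 0.27 for *Sohlh1*, -0.16 to 0.048 for *Etv5*, -0.11 to 0.026 for *Kitl*, -0.016 to 0.16 for *Gfra2*, -0.21 to 0.0023 for *Tdrd1*, -0.010 to 0.041 for *Tex15* and -0.10 to 1.03 for *Gfra1* introns. Without a change of sign, it ran from -0.45 to -0.17 for *Frs2*, 0.21 to 0.60 for *Tktl1*, 0.013 to 0.081 for *Rdh11* and -0.086 to -0.021 for *Ddx4*. The cause of these changes was not tested.

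The replicate numbers are not stated to mark related animals, and the deviations of same-numbered libraries correlated by -0.08 over exon sense and -0.14 over intron sense features. With the replicate number as a block, 1 exon sense and 1 intron sense feature were called, and *Uchl1*, *Kit*, *Sohlh2*, *Stra8* and *Sohlh1* had log2 fold changes of 0.15, 0.0091, 0.25, 0.10 and -0.24. Depth limits *Gfra1*, *Zbtb16* and *Nanos3* most, with 27, 5 and 5 exon reads in all.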
